A study of Mus musculus with 4 samples.

Results

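The genes described here are the translation initiation factor genes of the mouse and those of their kinases and binding proteins, taken as every gene of the deposited m6A site tables whose symbol begins with Eif and a digit, without pseudogenes named as such. They came to 56 genes of 20001 with a listed site and to 5343 distinct sites of 833043 inside genes. RefSeq holds 58 symbols that match, and the other 2, Eif4e1b and Eif2c5, had no listed site. RefSeq classes 1 of the 56, Eif4a3l2, as a pseudogene, although its symbol does not say so. The study measured N6-methyladenosine (m6A) in polyA RNA of mouse retinal organoids by GLORI, a chemistry that turns unmethylated adenosine into inosine, read as G, and leaves m6A to be read as A. The level of a site is its A reads as a percentage of A plus G. All 4 libraries came from organoids of an Rx:GFP line at day 6, and the growth protocol of all 4 has FKBP12F36V-HA at the C-terminus of the line's own Mettl3. METTL3 catalyses most m6A of mRNA, and dTAG13 directs a protein with this tag to the proteasome. There were 2 untreated libraries (0 h) and 2 dTAG13 libraries (125 nM, 8 h). Both groups carry the tag, so a comparison between them leaves out any effect of the tag itself. The cell line and genotype labels name a different Mettl gene in each sample, Mettl3 in 1 of them, so a tag on Mettl3 in all 4 is an assumption from the growth protocol and the series title and was not tested. The labels do not say whether replicates are separate cultures, so the p-values below cover only the spread between these libraries, which may be technical.

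Initiation factors bring the first aminoacyl-tRNA, the small ribosomal subunit and the mRNA together. eIF2 delivers initiator tRNA with GTP and is recharged by eIF2B, and 4 stress kinases that phosphorylate eIF2 alpha block this exchange. eIF4E binds the cap and eIF4G links it to the helicase eIF4A and to eIF3 on the small subunit, while the eIF4E-binding proteins compete with eIF4G. eIF1, eIF1A and eIF5 govern start codon selection, and eIF5B joins the large subunit. The m6A mark is deposited on many mRNAs, mostly near stop codons and in long exons, and is read by proteins that alter mRNA decay and translation.

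The listed sites were those that passed the authors' calling, and the lowest among them had 15 reads of A plus G, 5 of A and a 10% level. A position that is missing from a table can thus be unmethylated, below those limits or poorly covered. Over all genes, the untreated libraries listed 260741 and 272174 sites inside genes and the dTAG13 libraries 178739 and 201935. Median reads per listed site over all genes were 96 and 99 in the untreated and 87 and 112 in the dTAG13 libraries. The retinal progenitor markers Rax, Pax6, Six3, Six6, Lhx2 and Otx2 were listed in every library, with coverage of 135 to 656. The pluripotency markers Pou5f1, Nanog, Zfp42 and Dppa5a were listed too, with coverage of 59.0 (Zfp42) to 525 (Dppa5a). Sox17 (endoderm) at 26.0 to 69.8 and Mitf (pigment epithelium) at 108 to 151 were also listed, whereas the mesoderm gene T was not. Their part in the results was not tested.

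The initiation factor genes listed 1639 and 1655 sites without dTAG13, against 1342 and 1426 after it. The groups did not overlap, with fewer sites after dTAG13. The means were 1647 ± 11.3 and 1384 ± 59.4 (SD, n = 2), a ratio of 0.840, with p = 0.333 by an exact two-sided permutation test, which cannot go lower with 2 against 2 libraries. The ratio over all genes was 0.714. Coverage of these genes was lower with dTAG13 by more than their site number: the sum of the authors' gene coverage over the 54 genes listed in all 4 libraries had a ratio of 0.761, where all genes had 0.846. It is not normalised to depth. Per unit of coverage the site number was 0.0816 and 0.0764 in untreated and 0.102 and 0.0769 in dTAG13 libraries, a ratio of 1.14, or 0.973 without the first dTAG13 library. Over all genes it was 0.867.

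**Figure D1:**
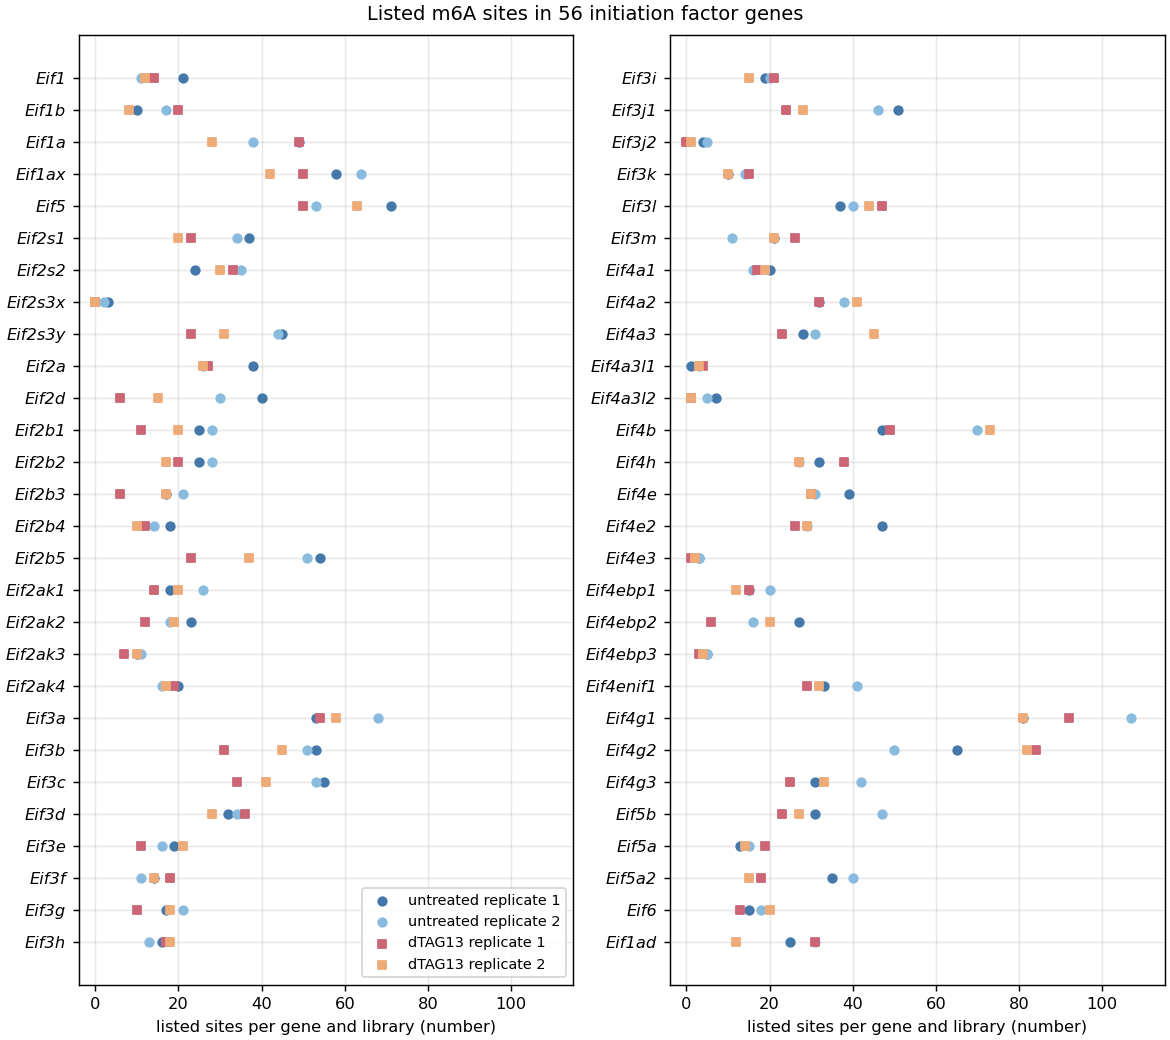
Number of listed m6A sites in each of the 56 initiation factor genes, with 1 symbol per library (circles untreated, squares dTAG13, symbols can overlap). Eif4g1 had the most sites, with 81, 107, 92 and 81 per library, and Eif2s3x had 3, 2, 0 and 0.

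By role, the groups with the lowest site ratios were the exchange factor and the ternary complex. The 5 eIF2B genes listed 139 and 142 untreated sites against 72 and 101 after dTAG13, a ratio of 0.616. The 6 genes of the ternary complex and its alternatives listed 187 and 171 against 112 and 122, a ratio of 0.654. Both dTAG13 libraries were below both untreated ones in each (p = 0.333 by the exact permutation test), as they were over all genes, where the ratio was 0.714. The 4 genes of subunit joining, eIF5A and eIF6 listed 94 and 120 against 73 and 76 sites, a ratio of 0.696. The 14 eIF3 genes, which encode the scaffold on the small subunit, listed 401 and 403 against 344 and 362 sites, a ratio of 0.878. The 7 genes of eIF4E and its binding proteins listed 169 and 145 against 110 and 129, and the 4 kinase genes listed 71 and 71 against 52 and 66. In the eIF4A and eIF4G groups the libraries overlapped: the 7 genes of eIF4A and its cofactors had a ratio of 1.04 and the 3 eIF4G genes one of 1.06. The start selection genes overlapped also, with 209 and 183 against 183 and 153 sites.

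In the limma test of site number per gene, no gene of 10258 passed an adjusted p of 0.05 (0% called), and so none of the 50 initiation factor genes tested did. At an unadjusted p of 0.05, 4 of the 50 had fewer sites with dTAG13 and none had more, against 20.5% and 0.77% of all genes. This count of 4 was 2 without either untreated library, 4 without the first dTAG13 library and 9 without the second. In 15 of 50 genes both dTAG13 libraries were below both untreated libraries (30%), against 50.2% of all genes. Eif5a2, which encodes a second eIF5A, a factor of elongation and termination, listed 35 and 40 sites against 18 and 15 after dTAG13. Its change was -1.14 (SE 0.28) on the log2 scale with an adjusted p of 0.208. Eif2d, which encodes a factor that can deliver tRNA without eIF2, listed 40 and 30 against 6 and 15 sites. Its log2 change was -1.75 (SE 0.48) with the same adjusted p of 0.208. Eif3j1, a subunit at the edge of eIF3, and Eif2s1, eIF2 alpha, were the other 2 genes at that level, with 51 and 46 against 24 and 28 sites and 37 and 34 against 23 and 20 sites. Eif4g2, an eIF4G relative without the eIF4E-binding part, was the reverse in direction: it listed 65 and 50 sites against 84 and 82, a log2 change of 0.53 (SE 0.29, adjusted p = 0.319).

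Eif4g1, the eIF4G scaffold, had the most distinct sites over the 4 libraries at 319, followed by Eif4g2 at 255, Eif4b at 210, Eif3a at 209 and Eif5 at 204. Eif1ax had 194, Eif3b 160, Eif2b5 153, Eif1a 150 and Eif3c 147. Over the genes, distinct sites and mean gene coverage had Spearman's rho of 0.16 (n = 56 genes, which share the libraries). At the other end, Eif2s3x and Eif2s3y encode eIF2 gamma on the X and Y chromosomes. Eif2s3x listed 3, 2, 0 and 0 sites, and Eif2s3y listed 45 and 44 against 23 and 31. The copies are closely similar in sequence, and how the authors assigned reads between them is not given in the sources used here. The same holds for Eif1 and Eif1b, Eif1a and Eif1ax, Eif3j1 and Eif3j2, and Eif4a3 with Eif4a3l1 and Eif4a3l2. It also holds for Eif4a1, Eif5a and Eif3e with their pseudogenes.

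Most sites were listed once. Of the 5343 distinct sites, a single library held 4707, whereas 565 were shared by 2, 59 by 3 and 12 by all 4. The share in 2 or more was 11.9% (Wilson 95% interval 11.1 to 12.8), against 8.65% over all genes. Between the untreated libraries 188 sites were common and between the dTAG13 libraries 111, giving 0.590 as their ratio where all genes gave 0.445. By mean level of the shared site, the pairs shared 142 and 96 sites at 10 to 40%, 39 and 14 at 40 to 90%, and 7 and 1 at 90% or more. The ratios at these levels were 0.676, 0.359 and 0.143, where all genes had 0.555, 0.291 and 0.113. The count of shared sites moves with the number of sites listed in each library. Shared sites at 10 to 40% differed between the untreated libraries by a median of 5.38 points, and those at 40 to 90% by 25.3 points. Over all genes the medians were 7.00 and 33.3 points.

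The level profile was low. The median level of initiation factor sites was 19.1% and 18.8% in untreated and 20.2% and 19.9% in dTAG13 libraries, against 28.2%, 27.0%, 29.3% and 29.3% over all genes. These sites were also read more deeply. Their median reads were 176 and 162 in untreated and 149.5 and 175 in dTAG13 libraries, against 96, 99, 87 and 112 over all genes. Whether read depth bears on the level, recurrence or spacing of these sites was not tested. In each library 76.9% to 81.4% of the sites lay at 10 to 40%, against 61.2% to 65.2% over all genes. Sites at 90% or more had few reads, with medians of 28, 28.5, 26 and 42.5 per library, as they had over all genes (31, 31, 31 and 36). The reads of these initiation factor sites were 0.215 to 0.279 of the coverage of their gene at the median. Those at 10 to 40% had 0.637 to 0.774. Over all genes the values were 0.400 to 0.435 and 0.914 to 0.988. Sites at 90% or more made up 4.94% and 4.95% of the untreated lists and 7.38% and 5.47% of the dTAG13 lists. Over all genes they made up 15.8% and 14.5% of the untreated and 17.6% and 18.4% of the dTAG13 lists. Sites also lay close together: the median distance to the nearest listed site was 17, 17, 18.5 and 20 bases in the 4 libraries, where all genes had 22, 24, 27 and 27.

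Recovery asks how often a site with 50 or more reads in 1 untreated library was listed in another library, with the other untreated library as the background. From the first untreated library, 12.3% of such sites were in the second, 8.49% in the first dTAG13 library and 9.33% in the second. Starting from the second untreated library the shares were 12.8%, 8.27% and 7.92%. The mean of the dTAG13 shares over that of the untreated shares was 0.680, and it was 0.557 over all genes. The gap was wider at the higher levels. At 40 to 90%, 35 of 167 sites (21.0%, Wilson 95% interval 15.5 to 27.7) of the first library were in the second, and 10 (5.99%, 3.28 to 10.7) and 9 (5.39%, 2.86 to 9.92) were in the dTAG13 libraries. From the second library they were 30 of 137 (21.9%) against 4 (2.92%) and 9 (6.57%). The ratio at that level was 0.244, where all genes had 0.306. At 10 to 40% the ratio was 0.803, with all genes at 0.659. At 90% or more, 5 of 14 and 5 of 18 sites were in the other untreated library. In the dTAG13 libraries it was 0 and 2 of the 14, and 0 and 0 of the 18. The ratio was 0.1, where all genes had 0.273. It rests on few sites: the Wilson 95% interval of 5 of 14 ran from 16.3% to 61.2%. Intervals cover counting error only, since PCR copies may remain among the reads.

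**Figure D2:**
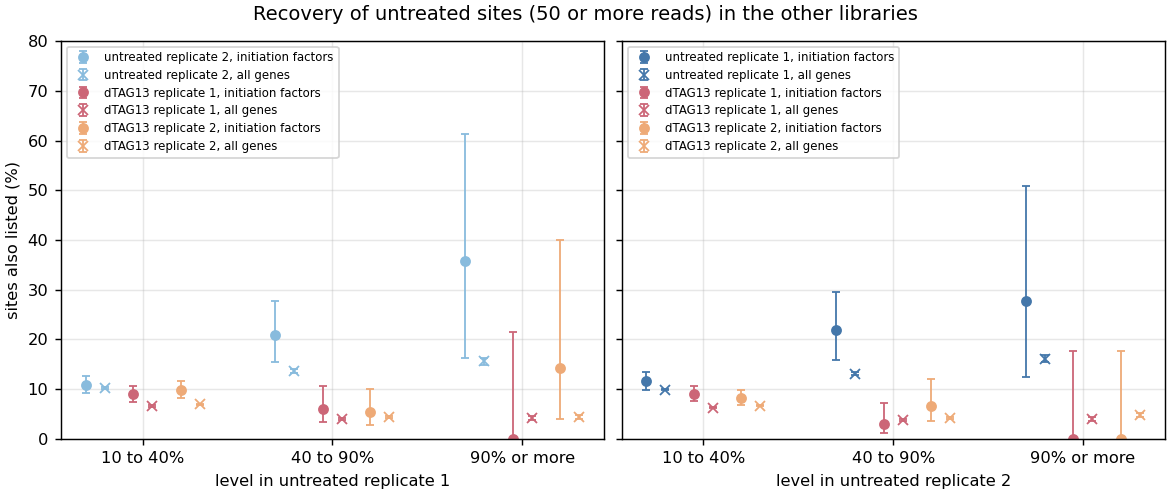
Share of untreated sites with 50 or more reads also listed in another library (percent, with Wilson 95% intervals), by level in the reference library, for the initiation factors (filled symbols) and all genes (crosses). At 40 to 90%, the other untreated library held 21.0% and 21.9% of the initiation factor sites and the dTAG13 libraries 2.92% to 6.57%.

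There were 35 initiation factor sites, in 23 genes, listed in both untreated libraries with 50 or more reads in each and a mean level of 40% or more. Since the rule picks sites by their untreated level, what follows describes them and tests nothing. Of the 35, 29 were in neither dTAG13 library (82.9%), as were 4060 of 4934 such sites over all genes (82.3%). Of these 29, 28 had a listed neighbour within 100 bases with 50 or more reads in a dTAG13 library, and 19 had a listed neighbour in both. Listed sites of these genes lay a median of 17 to 20 bases from the next. How often other positions have such a neighbour was not computed. The nearest neighbours were not all at a low level. They ran from 10% of 200 reads (Eif4ebp1) to 98.7% of 151 reads (Eif4e2), and those of Eif4a3 were at 42.8% and 60.3%. Neighbour levels given below are those of the named sites only. The reads at an unlisted position itself are not known. The mirrored rule, sites in both dTAG13 libraries, gave 8 sites, of which 7 were in neither untreated library, and 966 sites over all genes, of which 726 were in neither untreated library (75.2%). Untreated levels of the same site differed by a median of 17.0 points and by up to 80.2, at Eif2b2 (chr12:85272970, plus), where 1 library gave 19.8% of 172 reads and the other 100% of 77. At 10 of the sites they lay within 10 points of each other, and 8 of these were in neither dTAG13 library. No position is tied to an exon or UTR here. The submitters' processing notes name mm10, yet only 6.83% of initiation factor sites in untreated replicate 1 lie inside the GRCm38 interval of their gene, although 100% are on its chromosome. Contig names in the tables fit GRCm39. Coordinates are therefore given as the tables list them.

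In eIF3, Eif3b, the RNA-binding scaffold subunit, had the most deeply read of these sites. At chr5:140428947 on the plus strand the level was 86.5% of 4769 reads and 87.5% of 4239 reads in the untreated libraries, and neither dTAG13 library listed it. The nearest listed positions in those libraries were 61 bases away at 13.4% of 515 reads and 37 bases away at 19.3% of 1875 reads. The untreated values of this site were close to each other. Eif3l, a subunit of the eIF3 octamer, had 54.0% of 1236 reads and 59.2% of 1094 reads at chr15:78973819 (plus). It was not in the first dTAG13 library and was at 10.7% of 588 reads in the second, below both untreated values. Eif3j1 had 3 such sites, all in neither dTAG13 library, among them chr2:121882243 (plus) at 40.2% of 97 and 43.6% of 172 reads. For this site no dTAG13 library listed a neighbour within 100 bases, the 1 such case of the 29.

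Among cap-binding and start selection genes, Eif4e, the cap-binding protein, had a site at chr3:138261665 (plus) with 39.2% of 4095 and 41.2% of 3435 reads. Neither dTAG13 library listed it, and neighbours 32 and 91 bases away were at 13.5% of 943 and 12.4% of 824 reads. Eif5, which promotes GTP hydrolysis by eIF2, had 46.7% of 1116 and 42.5% of 1583 reads at chr12:111511364 (plus). Its dTAG13 neighbours were at 10.6% of 937 and 10.0% of 859 reads. Eif1b had 53.5% of 1292 and 45.0% of 1331 reads at chr9:120324116 (plus), with dTAG13 neighbours at 15.7% of 178 and 33.8% of 358 reads. At each of these 3 sites the untreated libraries lay within 10 points and the dTAG13 tables lacked the position. A further high site of Eif4e, at chr3:138261353 (plus), was less alike between the untreated libraries, at 74.7% of 557 and 51.7% of 540 reads, and was likewise in neither dTAG13 library.

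Eif2a encodes a factor that can bring initiator tRNA to the ribosome without eIF2. At chr3:58455942 (plus) its level was 76.3% of 541 and 82.5% of 1213 reads, with no dTAG13 value. At 8 bases from it the second dTAG13 library listed a site at 16.7% of 1137 reads, whereas the first listed none within 100 bases. Eif5a2 went the other way: at chr3:28851196 (plus) it had 45.6% of 57, 42.3% of 104 and, in the second dTAG13 library, 50% of 90 reads. Of the 6 high sites listed in 1 dTAG13 library, 4 were below both untreated values, at Eif3l, Eif3a, Eif2b1 and Eif4e2. Of the rest, 1 each lay above (Eif5a2) and between them (Eif2b2). These sites were picked for a high untreated level, and no matching share over all genes was computed. In the mirrored set, Eif2ak4 (GCN2, the kinase that senses uncharged tRNA) had 100% of 90 and 100% of 54 reads at chr2:118272541 (plus) with dTAG13. This position was not listed without dTAG13. However, the second untreated library listed a site 22 bases away at 91.7% of 72 reads, and the first listed none within 100 bases. Eif1ax had 51.9% of 52 and 61.1% of 90 reads at chrX:158169393 (plus) with dTAG13 only. Its untreated neighbours, 39 and 32 bases away, were at 30.2% of 86 and 18.3% of 142 reads.

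**Figure D3:**
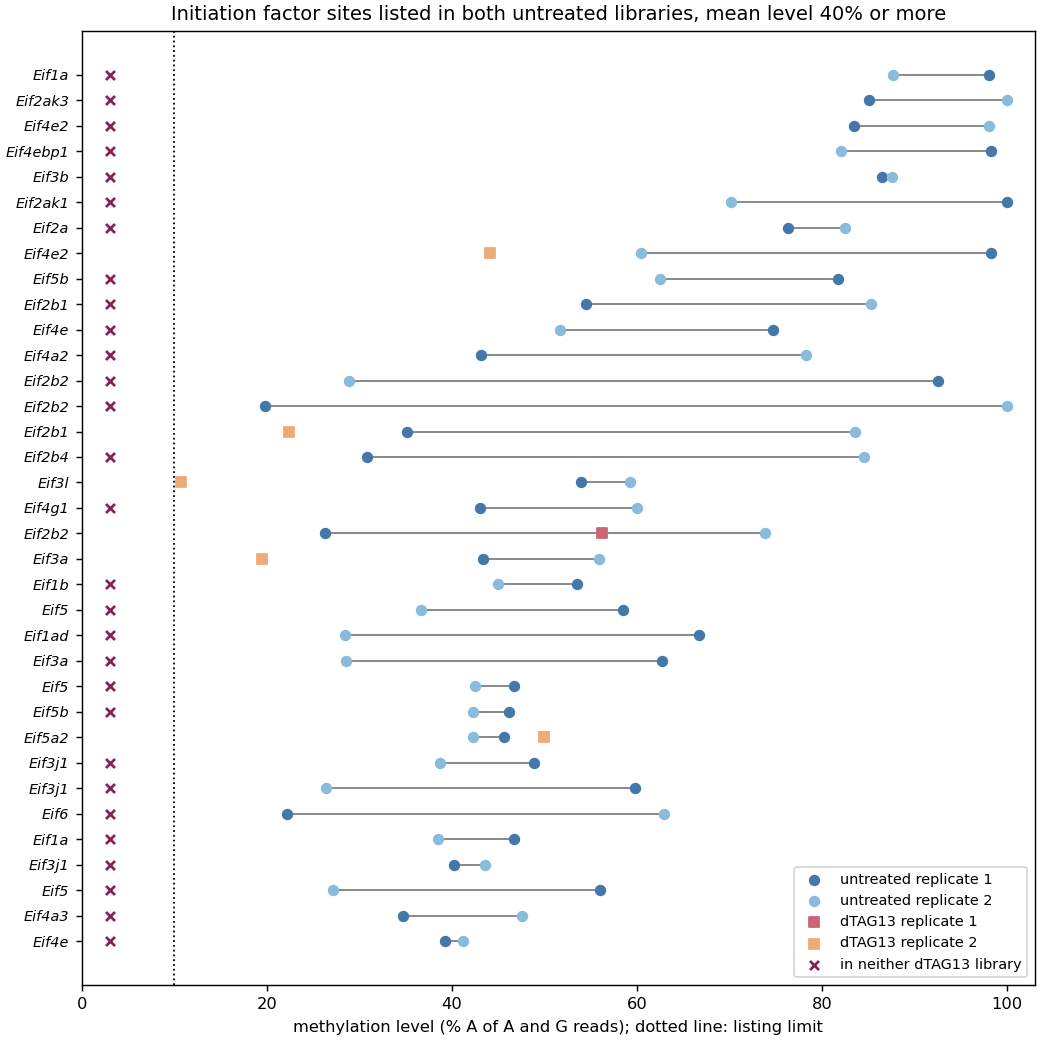
Level of each of the 35 initiation factor sites listed in both untreated libraries (circles) with 50 or more reads and a mean of 40% or more, in percent of A and G reads, with dTAG13 values as squares and crosses where neither dTAG13 library listed the site. 29 sites carry a cross, and the dotted line is the listing limit of 10%.

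A change in level could be tested at the 12 sites, in 10 genes, that all 4 libraries listed with 20 or more reads. A site that dropped below 10% cannot be in this set. None of the 12 passed an adjusted p of 0.05 in the quasi-binomial test, in which 53 of 2321 sites did (2.28%), 51 of them lower with dTAG13. The 2321 sites lie inside and outside genes: without the read limit 2493 sites were listed in all 4 libraries, 1219 of them inside genes. No share for sites inside genes alone was computed in this test. At an unadjusted p of 0.05, 2 of 12 were higher with dTAG13 and none lower, against 3.4% and 5.95% of the 2321 sites. Eif5 at chr12:111511764 (plus) was at 12.2% and 12.8% without dTAG13 but at 19.6% and 24.0% after it, over 761 to 2825 reads. The groups did not overlap, and the difference was 9.30 points (means 12.5 ± 0.38 and 21.8 ± 3.16, SD, n = 2, quasi-binomial adjusted p = 0.115). Eif4a1, the helicase, was at 16.9% and 14.5% against 20.5% and 23.6% at chr11:69558044 (minus), a difference of 6.37 points with a quasi-binomial adjusted p of 0.295. Pooling the reads of the replicates in Fisher's exact test called 5 of the 12, a test that leaves out the spread between libraries.

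The other tested sites mostly lay between 10 and 30%. Eif1, the start codon fidelity factor, was at 25.9%, 29.7%, 24.8% and 28.6% at chr11:100210978 (plus), with the groups overlapping. In eIF3, Eif3f was at 12.7%, 13.2%, 11.6% and 16.2% at chr7:108539883 (plus), and Eif3h at 15.6%, 13.1%, 14.6% and 11.3% at chr15:51662615 (minus). Eif3c was at 11.9%, 11.6%, 19.4% and 14.2% at chr7:126146114 (minus), both dTAG13 values being above (5.01 points, quasi-binomial adjusted p = 0.605, and 2.42 or 7.59 points without the first or the second dTAG13 library). Eif5a, which helps ribosomes past proline stretches, was also above in both, at 14.3%, 17.5%, 17.5% and 21.4% (chr11:69807630, minus). The Eif4b, Eif3l and 2 Eif3e sites had overlapping groups. Eif5 at chr12:111511996 (plus) was at 47.7% in the first untreated library and at 16.2%, 18.2% and 18.0% in the other 3, so 1 library carried the difference of -13.9 points (quasi-binomial adjusted p = 0.852). Without that library the difference was 1.85 points. Of all 71 sites in 34 genes listed in 3 or more libraries, 28 had a lower and 43 a higher dTAG13 mean. Their median change was 1.69 points, where all 9687 such sites, inside and outside genes, had -0.04. Lower and higher sites among the 9687 were not counted. At 59 of the 71 sites 1 library was missing, so the mean of 1 group was a single value. A site that dropped below 10% in both dTAG13 libraries cannot be among the 71. None of the 71 passed in the fit of the 9687, where 0.289% did, and 7 of the 71 were at an unadjusted p of 0.05, against 11.1%. The smallest p after the Eif5 site belonged to Eif3l at chr15:78973819, described above, whose difference was -45.9 points (quasi-binomial adjusted p = 0.245). The next was in the same gene and in the other direction: at chr15:78968351 (plus) Eif3l was at 16.4% and 16.5% untreated and at 52.4% in the first dTAG13 library, a difference of 36.0 points (quasi-binomial adjusted p = 0.247).

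**Figure D4:**
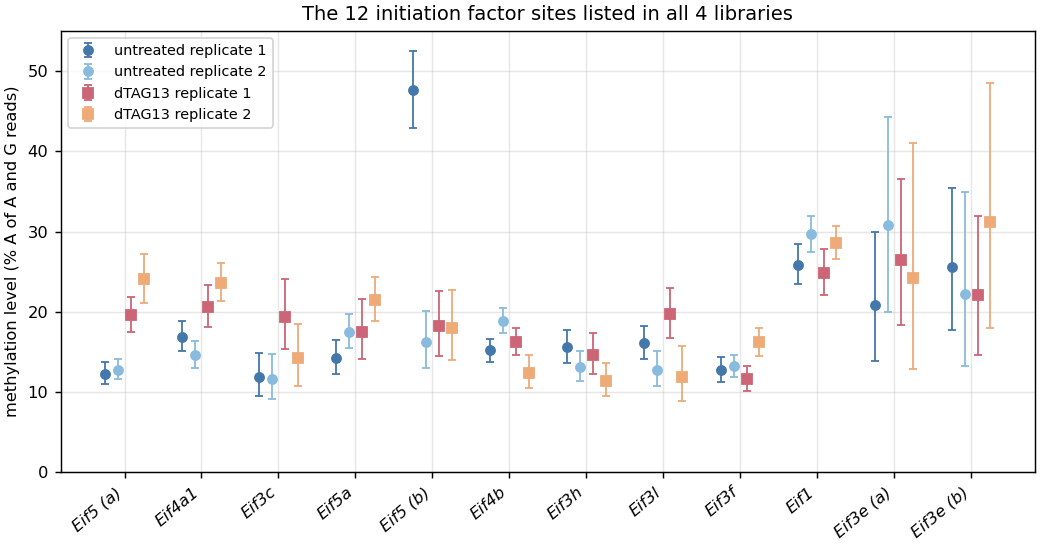
Level (percent of A and G reads) of the 12 initiation factor sites listed in all 4 libraries, with Wilson 95% intervals for counting error and 1 symbol per library. The Eif5 site marked (a) is at 12.2% and 12.8% untreated against 19.6% and 24.0% after dTAG13, and none of the 12 passed the adjusted threshold.

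Over a gene's tested sites together, 10 initiation factor genes could be fitted and none passed, against 4.53% of 1016 genes. Eif4a1 had the smallest p (difference 6.37 points, quasi-binomial adjusted p = 0.234), and Eif5 followed at 18.0% and 13.2% untreated against 19.3% and 22.3% after dTAG13 (5.20 points, quasi-binomial adjusted p = 0.498). The Eif5 value sums both of its tested sites, and it was 7.58 or 2.83 points without the first or the second untreated library and 6.74 or 3.67 without the first or the second dTAG13 library.

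Gene coverage is the authors' read depth over a gene, given for genes with a listed site. In bulk samples, fewer cells of a type and less RNA per cell cannot be told apart. Centred on the median of each library, the log2 coverage of 43 of 54 initiation factor genes was lower with dTAG13, and their median difference was -0.37 against -0.07 for all genes. No gene of 12520 passed an adjusted p of 0.05 in limma (0% called). At an unadjusted p of 0.05, 17 of 54 were lower and 1 was higher, against 8.34% and 4.4% of all genes. This count of 18 was 5 and 4 without the first or the second untreated library, 13 without either dTAG13 library, and 6 without centring. In 33 of 54 (61.1%) both dTAG13 libraries were below both untreated ones, against 29.2% of all genes. Eif4ebp3, an eIF4E-binding protein gene, had coverage of 336 and 188 untreated against 72.6 and 44.3 after dTAG13. Its log2 difference was -2.07 (SE 0.47, limma adjusted p = 0.363), and it passed without centring (limma adjusted p = 0.00319). Its 13 distinct sites make it one of the thinly listed genes.

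Eif3c, a large eIF3 scaffold subunit, had coverage of 273 and 296 untreated against 133 and 161 after dTAG13. The groups were well apart, and the log2 difference was -0.88 (SE 0.20, limma adjusted p = 0.363). Eif4g2 had coverage of 1061 and 1255 against 509 and 778, a log2 difference of -0.79 (SE 0.21), although it listed more sites with dTAG13. Of the 13 eIF3 genes tested, all 13 had a difference below 0, and 7 were at an unadjusted p of 0.05 (Eif3b, Eif3c, Eif3g, Eif3h, Eif3j1, Eif3l and Eif3m). Of all genes, 7095 of 12520 were below 0 and 8.34% were lower at that p. Of the 5 eIF2B genes 3 were below 0, and none was at that level. Eif1a alone was higher at that level, with 321 and 343 against 381 and 636 and a log2 difference of 0.65 (SE 0.22, limma adjusted p = 0.364).

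**Figure D5:**
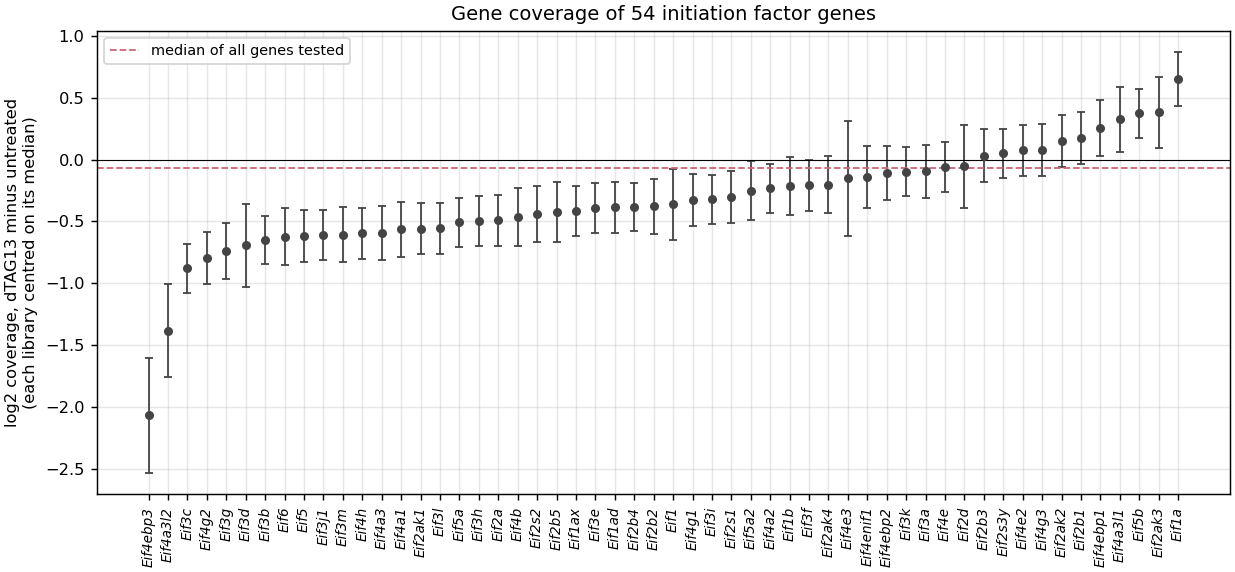
Difference in log2 gene coverage between dTAG13 and untreated libraries for 54 initiation factor genes (points, with SE bars), each library centred on its median. 43 points lie below 0, the dashed line is the median of all genes at -0.07, and Eif4ebp3 and Eif1a are the extremes at -2.07 and 0.65.

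The conversion rate of a gene, deposited by the authors, gives the share of its A positions left unconverted, not only at listed sites. The median unconverted share of the initiation factor genes was 4.39% and 3.76% in untreated and 3.25% and 3.29% in dTAG13 libraries. For all genes it was 4.15% and 3.78% in untreated and 3.13% and 3.26% in dTAG13 libraries. In 25 of 54 genes (46.3%) both dTAG13 libraries were below both untreated ones, against 40.9% of all genes. No gene of 12520 passed in limma (0% called). At an unadjusted p of 0.05, 6 of 54 were lower and none higher, against 11.3% and 1.06% of all genes. The count of 6 was 1 or 2 when a library was left out, and 0 with median centring. Eif1a had 4.82% and 6.14% against 2.95% and 2.71%, a log2 odds difference of -0.96 (SE 0.28, limma adjusted p = 0.368). Eif1b had 5.23% and 3.92% against 2.51% and 1.78%, a log2 odds difference of -1.10 (SE 0.33) with the same adjusted p. The others at that level were Eif4e2, Eif2a, Eif5b and Eif4ebp1.

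A list of 26 further genes of translation initiation, among them poly(A)-binding proteins, eIF4E kinases and mTOR components, was read from the same fits. None passed in coverage, conversion or site number. At an unadjusted p of 0.05, coverage of Ddx3x and Bzw2 was lower and of Mknk1 higher, against 8.34% and 4.4% of all genes. In site number 4 of the 26 were at that level, all lower, where 20.5% of all genes were lower. In conversion 2 were lower and 1 higher, against 11.3% and 1.06%. Their median log2 coverage difference was -0.28, beside -0.07 for all genes, and in 13 of 26 genes both dTAG13 libraries lay below both untreated ones (50%), against 29.2% of all genes.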

How the data were processed

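GLORI site tables of 2 untreated and 2 dTAG13 libraries were used, and the deposited values are per library. Deposited counts are A and G reads and A reads per site. The deposited fraction of A matched the ratio of counts at 100% of sites (tolerance 1e-05), and a second deposited fraction is the gene conversion rate. Gene coverage is a signal deposited by the authors, not normalised to depth, and deposited p-values are those of the authors' calling. The submitters' processing notes name mm10, and the aligner and caller are not given in the sources used here. The sequence around sites was not used here, and 1 marker gene is not reported here.

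Members were chosen by symbol, and the members and gene lists were chosen with earlier results of these data known. Sites and genes were named by a rule: sites listed in 3 or more libraries or at 40% or more in both libraries of a group, and the genes with most sites or the smallest p. Sites listed in all 4 libraries with 20 or more reads were fitted, inside and outside genes. The model was quasi-binomial with group only, and its dispersion was moderated by limma 3.58.1 (R 4.3.3). Coverage (log2, centred), conversion (log2 odds, offset 0.001) and site number (log2(sites + 1), genes with a mean of 5 or more) were tested with limma. Tests were two-sided, adjusted by Benjamini-Hochberg over all features with a threshold of 0.05. The scripts were tested on simulated data. There, at the 0.05 threshold, 7.53% of the calls were false for the quasi-binomial model and 8.68% for limma, so both were above the nominal rate. Alternatives included edgeR 4.0.16.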

Additional observations from a re-analysis of the deposited data

How the results depend on the processing

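The site number ratio of 0.840 was 0.895 for sites at 20% or more, 0.901 for an authors' adjusted p under 1e-06 and 1.14, the opposite direction, per unit of gene coverage. Leaving out a library gave 0.815 to 0.866. The recovery ratio of 0.680 was 0.199 for sites at 50% or more. Leaving out a dTAG13 library gave 0.670 to 0.690, and leaving out an untreated library was not run, since no background would be left. Settings chosen after seeing the data gave a site number ratio of 0.903 for sites with reads of 0.5 or more times the gene coverage, and recovery ratios of 0.799 when a site within 10 bases counted and 0.803 below 40%. Pooled Fisher's exact test called 5 initiation factor sites (531 of all), and coverage without centring called 1 gene (Eif4ebp3, 15 of all). Other settings called none, but the whole table's 53 site calls became 28 for sites in 3 or more libraries, and 0 with the replicate block or without any 1 library. Genes by level became 0 with the block and 0 to 5 when leaving out a library.

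Replicate numbers did not pair the samples: deviations of same-numbered libraries correlated at 0.002 for coverage, 0.008 for conversion and 0.038 for site level. The replicate block called 0 initiation factor sites or genes in every test. With the block, the unadjusted counts were 14 of 54 genes for coverage and 2 for conversion. With limma on log2 odds, the Eif3e site at chr15:43113627 had a difference of 0.0018, against -0.46 points. Leaving out a library turned the sign of 7 uncalled sites, whose differences ranged from -29.6 to 1.85 points (Eif5, chr12:111511996), -3.0 to 0.24 (Eif3h), -2.55 to 5.26 (Eif3l), -1.32 to 3.25 (Eif3f), -2.98 to 0.83 (Eif1), and -5.43 to 4.51 and -1.80 to 7.36 (Eif3e, chr15:43113627 and 43113614).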

Other observations

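Pseudogenes of initiation factors, left out by the rule, also carried listed sites. Eif3s6-ps3 listed 22 and 15 untreated sites and 29 and 30 after dTAG13, and Eif3s6-ps2 listed 8 and 13 against 11 and 4. Gene coverage over the 4 libraries was 2002 to 3653 for Eif4a-ps4 and 1860.4 to 3228.6 for Eif5al3-ps. It was lower for Eif4a1 (257.5 to 500.0) and Eif5a (470.7 to 845.4). No initiation factor gene went above 1385.6 (Eif1). Of the other pseudogenes examined, Eif3s6-ps3 had the highest coverage, up to 717.8. Whether reads of Eif4a1 or Eif5a were counted under Eif4a-ps4 or Eif5al3-ps was not tested.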
